A study of Mus musculus with 12 samples.

Results

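Interferon-stimulated genes are the genes that cells switch on when they sense interferon, and 42 of them were followed here through 4 kinds of mouse CD4 T cell culture. The 42 were taken by name from a list: 33 antiviral genes known mainly as targets of type I interferon, 6 GTPases known mainly as targets of IFN-gamma, and 3 antigen processing genes that IFN-gamma also induces. Of these, 37 were found under their own symbol on the array and 3 under an older one through their RefSeq accession (Dhx58, Cmpk2 and Irgm1). No probe was found for the other two, Dtx3l and Xaf1, so 40 members were tested among 17998 genes in all. The rule that names them uses no value measured in these cultures, but the list was chosen with earlier results of these data known.

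The study set out to define what Th9 cells, helper T cells that secrete IL-9, transcribe. Naive CD4+CD62L+ T cells of C57BL/6 mice were primed on anti-CD3 with anti-CD28, expanded on day 3 and harvested after 5 days. The Treg cultures were given TGF-b and anti-IL-4, with IL-2 from the expansion on. The Th9 cultures were given IL-4 (20 ng/ml), TGF-b (2 ng/ml) and anti-IFN-g, and IL-4 and TGF-b were added once more at the expansion. Some Th9 cultures were then restimulated with 1 µg/ml anti-CD3 for 6 h, and the others were harvested at rest. The Th2 cultures were given IL-4 and anti-IFN-g. The labels thus name an antibody that blocks IFN-gamma for the Th9 and Th2 media but not for the Treg medium. IL-4, its blocking antibody, added IL-2 and the blocking of IFN-gamma all differ between the Treg and the Th9 media and cannot be told apart here. As the labels give them, the Th9 and Th2 media differ by TGF-b and by what was added again at the expansion. Each of the 4 groups had 3 samples, and nothing in the labels says that these came from separate animals, so the spread between samples may be technical.

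Type I interferons are secreted by infected or alerted cells and bind a receptor made of Ifnar1 and Ifnar2. The kinases Jak1 and Tyk2 then pass the signal to a complex, with Stat2 and Irf9 among its parts, that binds the interferon-stimulated response element, ISRE, in front of antiviral genes. IFN-gamma, the product of Th1 cells, NK cells and CD8 T cells, binds another receptor, works through Jak1 and Jak2, and leads to binding at the gamma-activated site, GAS. The GTPases and the antigen processing genes are classical IFN-gamma targets, although most of them answer type I interferon as well.

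RefSeq promoter windows, each 300 bases long with 250 before and 50 after an annotated start (build GRCm38.p6), were given for 31 of the 42 genes, with 37 windows in all. The ISRE core was searched as GAAANNGAAA and the GAS core as TTCNNNGAA, on both strands, and a match of one may overlap a match of the other. An ISRE core was found for 14 of the 31 genes and a GAS core for 9, with 4 genes holding both and 12 neither. Counted over windows, 37.8% of the members' windows held the ISRE core, against 3.44% of all 32851 promoter windows. For the GAS core the shares were 24.3% and 8.30%. By gene group, 10 of 23 type I genes, 4 of 5 GTPases and 0 of 3 antigen processing genes held the ISRE core. The windows of Psmb9 and Tap1 share 275 bases, since these genes are read away from each other from 1 start region. The stretches of 8 members are shown because they cover the 3 gene groups and both motifs. Each runs 5′ to 3′ on the gene's strand over the 200 bases before the start, with the letters of ISRE and GAS cores in capitals.
Ifit3 (chr19:34583329-34583528, plus strand): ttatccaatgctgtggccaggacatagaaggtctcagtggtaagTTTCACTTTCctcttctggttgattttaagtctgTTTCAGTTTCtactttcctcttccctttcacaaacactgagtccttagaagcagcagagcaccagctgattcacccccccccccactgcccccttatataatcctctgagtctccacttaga
Isg15 (chr4:156200819-156201018, minus strand): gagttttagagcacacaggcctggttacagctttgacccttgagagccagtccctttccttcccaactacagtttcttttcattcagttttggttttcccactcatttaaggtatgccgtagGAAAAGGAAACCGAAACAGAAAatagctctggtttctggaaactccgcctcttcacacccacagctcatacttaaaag
Rsad2 (chr12:26456453-26456652, minus strand): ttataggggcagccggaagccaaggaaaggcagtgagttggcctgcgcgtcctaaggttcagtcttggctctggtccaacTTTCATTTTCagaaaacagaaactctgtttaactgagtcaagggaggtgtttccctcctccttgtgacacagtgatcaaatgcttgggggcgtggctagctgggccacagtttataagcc
Bst2 (chr8:71537473-71537672, minus strand): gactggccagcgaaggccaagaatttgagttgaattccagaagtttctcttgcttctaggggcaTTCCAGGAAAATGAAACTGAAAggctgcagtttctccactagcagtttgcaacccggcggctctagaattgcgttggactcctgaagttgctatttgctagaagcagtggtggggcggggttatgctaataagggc
Igtp (chr11:58199356-58199555, plus strand): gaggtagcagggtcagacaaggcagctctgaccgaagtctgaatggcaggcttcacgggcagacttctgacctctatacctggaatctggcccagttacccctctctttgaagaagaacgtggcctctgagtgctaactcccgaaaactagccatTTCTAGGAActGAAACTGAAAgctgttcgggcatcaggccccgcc
Irgm1 (chr11:48871421-48871620, minus strand): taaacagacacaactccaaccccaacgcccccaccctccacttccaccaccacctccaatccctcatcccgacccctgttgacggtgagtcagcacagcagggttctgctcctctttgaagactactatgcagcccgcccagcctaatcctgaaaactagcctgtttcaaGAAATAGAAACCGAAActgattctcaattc
Gbp2 (chr3:142620463-142620662, plus strand): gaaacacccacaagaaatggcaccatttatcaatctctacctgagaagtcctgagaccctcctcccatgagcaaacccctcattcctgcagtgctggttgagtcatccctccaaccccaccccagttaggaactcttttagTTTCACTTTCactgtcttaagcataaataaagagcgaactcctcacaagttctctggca
Psmb8 (chr17:34197995-34198194, plus strand): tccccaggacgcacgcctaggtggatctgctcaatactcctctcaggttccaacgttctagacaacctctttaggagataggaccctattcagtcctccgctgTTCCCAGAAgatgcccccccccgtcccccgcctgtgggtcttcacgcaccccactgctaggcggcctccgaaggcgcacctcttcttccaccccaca
In Ifit3 the 2 capital stretches are ISRE cores on the other strand, which start 156 and 122 bases before the start. Isg15 held 3 overlapping ISRE cores, the first of them 78 bases before the start, and Irgm1 held 2 overlapping ones from 30 bases before it. The single capital stretches of Rsad2 and Gbp2 are ISRE cores on the other strand, 120 and 59 bases before the start. In Bst2 a GAS core that begins 136 bases before the start runs into 2 overlapping ISRE cores. In Igtp a GAS core and an ISRE core lie side by side, from 45 and 34 bases before the start. Psmb8 held a GAS core only, 97 bases before its start. Such a match describes letters and does not show that a factor binds there.

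RNA of each sample was labelled with Cy3 and read on 1 Agilent one-colour array. A level below is the log2 of the processed signal minus the 75th percentile of its array, so that 0 is the signal of that percentile, and a difference is between 2 group means on this log2 scale, ± its standard error. Between 59.8% and 63.7% of the 41174 probes were well above background on an array, no spot was saturated, and the number of arrays limits the precision. The marker genes of the labels were checked first. Il9 was at least 18.5-fold higher in resting Th9 than in Th2 cultures (adjusted p = 4.23e-06), where it was not well above background. Foxp3, the Treg transcription factor, was at least 84.3-fold higher in Treg than in Th2 cultures (adjusted p = 6.49e-09), where it was likewise not well above background, and 2.55 ± 0.22 (adjusted p = 3.13e-06) higher in Treg than in resting Th9 cultures. Of the 5 Treg markers listed, only Foxp3 was called higher in Treg than in resting Th9 cultures, and 2 were lower, while the 4 Th2 markers were all lower in Treg than in Th2 cultures. Such a lower bound sets the mean of the bright group against the dimmest signal well above background on each array of the dim group, or the dim signal itself where that was higher. The arrays lay on 3 slides. The Th2 arrays shared slide 1 with Treg array 1, the other Treg arrays shared slide 2 with restimulated arrays 1 and 2, and the resting Th9 arrays shared slide 3 with restimulated array 3. No slide held resting Th9 arrays together with Treg or Th2 arrays. Restimulated array 3 stood apart from the other restimulated arrays for the cytokine gene Ifng, at 4.56 against 8.39 and 8.12. In RNA of whole cultures, fewer cells of a type and less RNA per cell cannot be told apart.

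The interferon-stimulated genes were high in Treg cultures. Against resting Th9 cultures, 38 of the 40 members passed the threshold (limma, Benjamini-Hochberg adjusted p under 0.05) as higher in Treg and 0 as lower, where 35.3% of all genes tested were called higher and 28.7% lower. Their median difference was 2.68, against 0.11 over all genes. Against Th2 cultures 38 members were again higher and 0 lower (33.5% and 29.3% of all genes), with a median difference of 2.47 against 0.084 over all genes. Both comparisons use the same 3 Treg arrays, so they are not independent. Every Treg array lay above every resting Th9 array for 38 members and below for 0 (38.4% and 30.9% of all genes). Against the Th2 arrays this held for 38 and 1 (37.5% and 32.0% of all genes), the 1 being Isg20. Limma called no member lower against resting Th9 cultures, and at an unadjusted p under 0.05 the members that passed were the same in number, 38. At that unadjusted limit 39 members differed between Treg and Th2 cultures, and the one added, Isg20, was lower in Treg.

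The gene groups were described side by side and not tested against each other. Between Treg and resting Th9 cultures the median difference was 3.32 for the type I genes (30 of 31 higher), 2.52 for the GTPases (6 of 6) and 0.54 for the antigen processing genes (2 of 3). Between Treg and Th2 cultures it was 2.54 (29 of 31), 2.50 (6 of 6) and 0.54 (3 of 3). The 3 largest differences between Treg and resting Th9 cultures were those of Ifit3 (9.55), Ifi44 (8.76) and Rtp4 (7.37), and the smallest those of Tap1 (0.05) and Dhx58 (0.38). Within slide 1, Treg array 1 was above the mean of the Th2 arrays for 38 of 40 members, with a median difference of 2.34. Within slide 2, the mean of the Treg arrays was above that of the restimulated Th9 arrays for 40 of 40, with a median of 2.38. With slide as a fixed block, 35 members stayed higher in Treg than in resting Th9 cultures, at a median of 2.96, and 35 stayed higher than in Th2 cultures. The calls lost against resting Th9 cultures were those of Gbp2 (0.16), Iigp1 (2.05) and Psmb9 (0.32), and those lost against Th2 cultures were those of Oas3 (0.73), Tap1 (0.47) and Psmb8 (0.25).

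**Figure D1:**
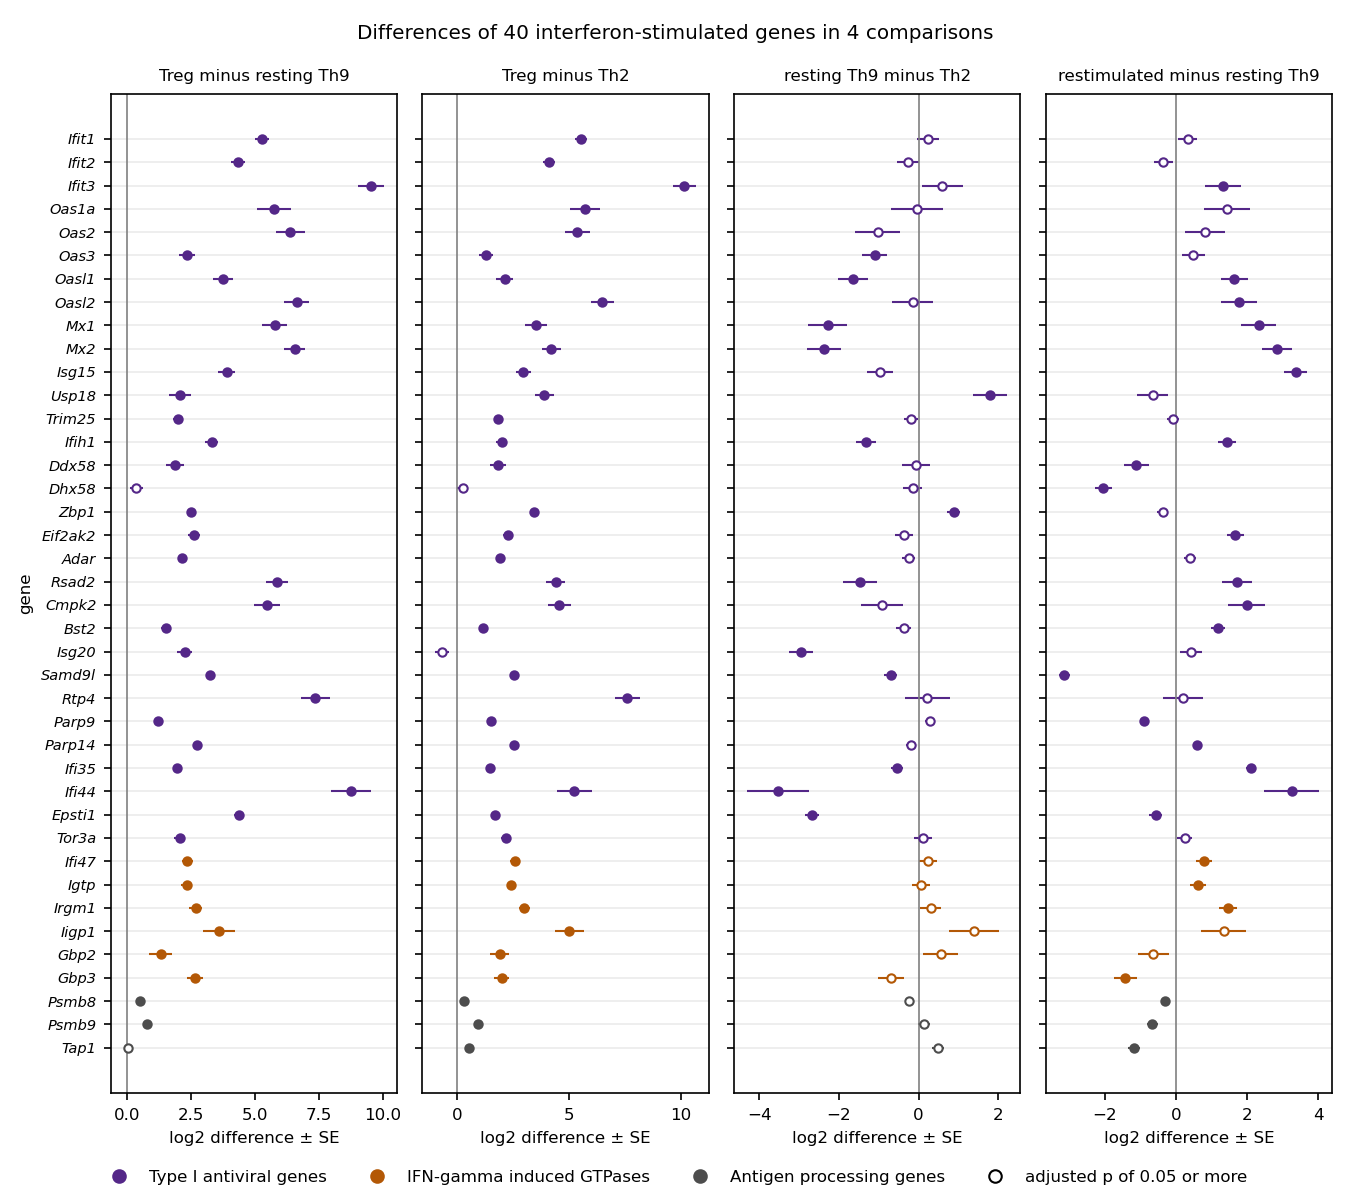
Differences of the 40 measured members in the 4 comparisons, as the log2 difference of group means (x axis, each panel with its own range) with its standard error, coloured by gene group, with open points for adjusted p of 0.05 or more. In the panels of Treg against resting Th9 and against Th2 cultures, 38 points are filled and lie right of 0, while the panels of resting Th9 against Th2 and of restimulated against resting Th9 cultures hold points on both sides.

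Between the cultures grown in IL-4, resting Th9 and Th2, a smaller set of antiviral genes differed, and most were lower in Th9. Of the 40 members, 11 were lower in resting Th9 than in Th2 cultures, and 2, Usp18 and Zbp1, were higher, all of them type I genes. Over all genes 9.20% were called lower and 7.74% higher. Arrays of the 2 groups did not overlap for 4 members that stood higher and 18 that stood lower in resting Th9 cultures (18.3% and 21.2% of all genes). The members called lower were Ifi44 (-3.54), Isg20 (-2.94), Epsti1 (-2.68), Mx2 (-2.37), Mx1 (-2.28), Oasl1 (-1.65), Rsad2 (-1.48), Ifih1 (-1.33), Oas3 (-1.10), Samd9l (-0.71) and Ifi35 (-0.54). The calls of Rsad2, Oas3 and Ifi35 were lost in 13, 8 and 7 of 24 other settings. The median difference over the members was -0.22, against -0.028 over all genes. None of the 6 GTPases and none of the 3 antigen processing genes passed in limma, where 0 of the GTPases and 2 of the antigen processing genes had an unadjusted p under 0.05. Resting Th9 and Th2 arrays shared no slide, and with slide as a fixed block, which links them through the Treg and restimulated arrays, 2 of these 13 calls were kept (Isg20 at -2.65 and Epsti1 at -3.56) and Ddx58 was added (-2.03, adjusted p = 0.0461). The median was then -0.63. Leaving out single arrays changed the counts: without Th9 array 3, 7 members were higher, among them the GTPases Iigp1, Gbp2, Irgm1 and Ifi47. Without Th9 array 2, 1 was higher and 7 lower, without Th2 array 2 likewise 1 and 7, and without Th2 array 3, 6 were lower.

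Restimulation with anti-CD3 moved the members both ways. In restimulated against resting Th9 cultures 17 members rose and 9 fell, with a median difference of 0.55 against 0.021 over all genes. Over all genes 33.1% were called higher and 30.6% lower. Every restimulated array lay above every resting one for 19 members and below for 10 (35.4% and 32.9% of all genes). Among the type I genes 14 rose and 5 fell, among the GTPases 3 rose (Irgm1, Ifi47 and Igtp) and 1 fell (Gbp3), and the 3 antigen processing genes all fell. The members that rose most were Isg15 (3.37), Ifi44 (3.25), Mx2 (2.85), Mx1 (2.33) and Ifi35 (2.11). Those that fell most were Samd9l (-3.13), Dhx58 (-2.04), Gbp3 (-1.43) and Tap1 (-1.17). Within slide 3, restimulated array 3 was above the mean of the resting arrays for 25 of 40 members and below it for 15, with a median difference of 0.47. With slide as a fixed block 18 of the 26 calls were kept, 12 higher and 6 lower, and those of Ifi44, Oasl2, Ifi47, Igtp, Ifit3, Ddx58, Epsti1 and Psmb8 were lost. Without restimulated array 3 the fit called 19 members higher and 9 lower. The shares of all genes above do not apply to single slides, the slide block or fits with an array left out.

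**Figure D2:**
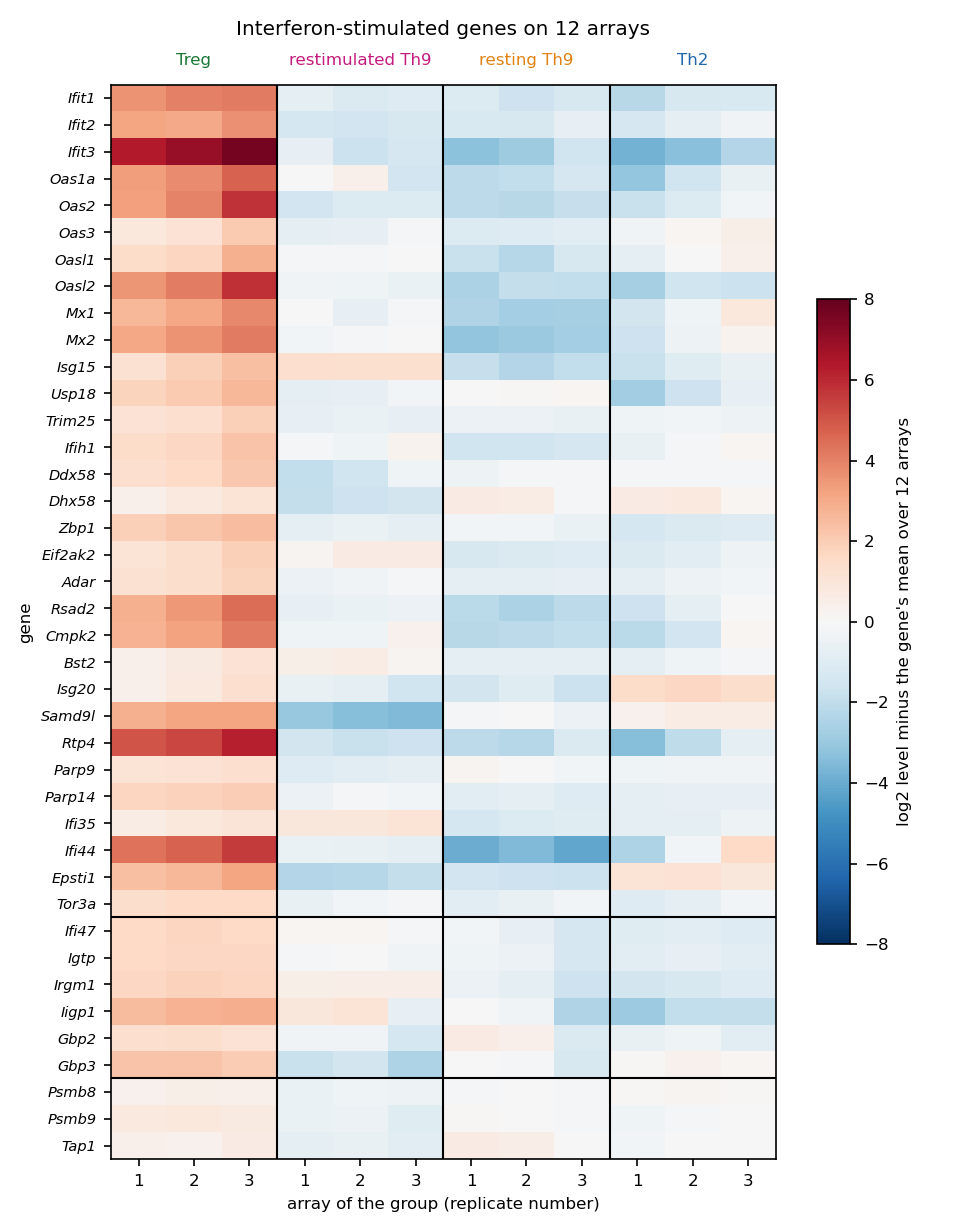
Level of each of the 40 measured members (rows, by gene group: type I genes on top, then GTPases, then antigen processing genes) on each of the 12 arrays (columns, by group), as the log2 level minus the gene's mean over the 12 arrays. Nearly all rows are red on the 3 Treg arrays, Isg15 and Ifi35 are red on the restimulated Th9 arrays as well, and Isg20 and Epsti1 on the Th2 arrays.

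The Ifit proteins bind foreign RNA and stop its translation. The level of Ifit1 was 1.33, 1.79 and 1.92 on the Treg arrays, -3.07, -3.44 and -3.29 on the restimulated Th9 arrays, -3.37, -3.93 and -3.52 on the resting Th9 arrays and -4.47, -3.57 and -3.48 on the Th2 arrays. Ifit2 stood at 0.71, 0.63 and 1.22 on the Treg, -3.86, -3.96 and -3.69 on the restimulated Th9, -3.65, -3.73 and -3.09 on the resting Th9 and -3.76, -3.22 and -2.68 on the Th2 arrays. In Treg cultures Ifit3 read 3.83, 4.49 and 5.14, in restimulated Th9 cultures -3.16, -4.18 and -3.86, in resting Th9 cultures -5.76, -5.34 and -4.08 and in Th2 cultures -6.29, -5.82 and -4.86. In each of the 3 genes the Treg arrays lay above the other 9, and the resting Th9 arrays overlapped both the restimulated and the Th2 arrays. Ifit3 differed by 9.55 ± 0.51 (adjusted p = 1.03e-07) between Treg and resting Th9 cultures and by 10.14 ± 0.51 (adjusted p = 7.1e-08) between Treg and Th2 cultures, the largest differences of any member. Its probe was well above background on 1 of the 3 Th2 arrays, and it may also bind the transcript of the near-identical gene Ifit3b. Ifit1 differed by 5.29 ± 0.27 (adjusted p = 6.76e-08) and Ifit2 by 4.34 ± 0.27 (adjusted p = 3.01e-07) between Treg and resting Th9 cultures. Between resting Th9 and Th2 cultures none of the 3 passed, with differences of 0.23, -0.27 and 0.59 for Ifit1, Ifit2 and Ifit3. After restimulation Ifit3 was higher than at rest by 1.33 ± 0.51 (adjusted p = 0.0404), a call that ended under 10 of the 24 other settings tried. The differences of Ifit1 (0.34) and Ifit2 (-0.35) did not pass.

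The OAS enzymes make 2'-5' oligoadenylates, which switch on RNase L to cut RNA. Oas1a read 2.54, 2.97 and 3.91 on the Treg arrays, -0.75, -0.41 and -2.35 on the restimulated Th9 arrays, -2.90, -2.75 and -2.17 on the resting Th9 arrays and -3.92, -2.40 and -1.38 on the Th2 arrays. The level of Oas2 was 0.53, 1.19 and 3.02 on the Treg arrays, -4.29, -3.88 and -3.84 on the restimulated Th9 arrays, -4.85, -4.99 and -4.60 on the resting Th9 arrays and -4.54, -3.86 and -2.95 on the Th2 arrays. Oas3 stood at 1.14, 1.45 and 2.41 on the Treg, -0.45, -0.38 and 0.22 on the restimulated Th9, -0.78, -0.76 and -0.55 on the resting Th9 and 0.02, 0.42 and 0.78 on the Th2 arrays. The Treg arrays were the highest in all 3 genes, with Oas3 the one whose Th2 arrays came nearest to them. The probe of Oas1a may also bind transcripts of its close Oas1 relatives. Oas1a was higher in Treg than in resting Th9 cultures by 5.74 ± 0.66 (adjusted p = 2.39e-05), Oas2 by 6.39 ± 0.56 (adjusted p = 3.15e-06) and Oas3 by 2.36 ± 0.31 (adjusted p = 7.09e-05). Oasl1 and Oasl2 are relatives of these enzymes, and mouse Oasl1 is known to hold back translation of Irf7. In Treg cultures Oasl1 read -0.44, -0.17 and 0.92, in restimulated Th9 cultures -2.07, -2.02 and -1.96, in resting Th9 cultures -3.69, -4.16 and -3.15 and in Th2 cultures -2.63, -1.94 and -1.47. Oasl2 read 1.20, 1.75 and 3.52 on the Treg arrays, -2.60, -2.67 and -2.86 on the restimulated Th9 arrays, -4.87, -4.27 and -4.31 on the resting Th9 arrays and -5.01, -3.93 and -4.04 on the Th2 arrays. The Treg arrays were the highest for both. Oasl2 stood 6.63 ± 0.50 (adjusted p = 1.16e-06) above resting Th9 cultures in Treg cultures, and Oasl1 3.77 ± 0.38 (adjusted p = 9.94e-06). In resting Th9 cultures Oasl1 (-1.65 ± 0.38, adjusted p = 0.0153) and Oas3 (-1.10 ± 0.31, adjusted p = 0.0366) were lower than in Th2 cultures, without overlap of the arrays. Restimulation raised Oasl1 by 1.65 ± 0.38 (adjusted p = 0.003) and Oasl2 by 1.77 ± 0.50 (adjusted p = 0.00982).

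Mx1 and Mx2 are dynamin-like GTPases that trap incoming virus particles; inbred strains such as C57BL/6 carry defective copies, so only transcript levels are at issue here. The level of Mx1 was -0.24, 0.22 and 0.96 on the Treg arrays, -2.89, -3.54 and -3.00 on the restimulated Th9 arrays, -5.27, -5.61 and -5.53 on the resting Th9 arrays and -4.34, -3.22 and -2.03 on the Th2 arrays. Mx2 stood at 1.39, 1.90 and 2.47 on the Treg, -1.94, -1.81 and -1.65 on the restimulated Th9, -4.83, -4.67 and -4.44 on the resting Th9 and -3.35, -2.08 and -1.39 on the Th2 arrays. All 4 groups were in the same order for both genes by their means, with Treg highest and resting Th9 lowest, and resting Th9 arrays overlapped no other group. The restimulated and Th2 arrays overlapped each other. Mx1 was 5.79 ± 0.49 (adjusted p = 2.58e-06) and Mx2 6.57 ± 0.42 (adjusted p = 3.38e-07) higher in Treg than in resting Th9 cultures. Relative to Th2 cultures, resting Th9 cultures differed by -2.28 ± 0.49 (adjusted p = 0.011) in Mx1 and by -2.37 ± 0.42 (adjusted p = 0.00396) in Mx2, both lower. After restimulation Mx1 was higher by 2.33 ± 0.49 (adjusted p = 0.0016) and Mx2 by 2.85 ± 0.42 (adjusted p = 0.000128).

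Isg15 is a ubiquitin-like protein that is joined to newly made proteins, Usp18 removes it again and damps the type I receptor, and Trim25 is a ubiquitin ligase that helps the RNA sensor Ddx58 signal. In Treg cultures Isg15 read 1.30, 1.95 and 2.50, in restimulated Th9 cultures 1.43, 1.34 and 1.36, in resting Th9 cultures -1.80, -2.26 and -1.92 and in Th2 cultures -1.69, -0.89 and -0.51. Usp18 read 3.58, 3.94 and 4.48 on the Treg arrays, 1.03, 1.15 and 1.61 on the restimulated Th9 arrays, 1.84, 1.94 and 1.97 on the resting Th9 arrays and -0.95, 0.15 and 1.16 on the Th2 arrays. The level of Trim25 was 4.69, 4.90 and 5.47 on the Treg arrays, 2.92, 3.04 and 2.88 on the restimulated Th9 arrays, 3.06, 3.06 and 2.94 on the resting Th9 arrays and 3.21, 3.32 and 3.13 on the Th2 arrays. The restimulated arrays of Isg15 overlapped with the Treg arrays and lay above all resting Th9 and Th2 arrays. It rose by 3.37 ± 0.32 (adjusted p = 5.32e-06) with restimulation, the largest rise among the members. Its only probe is placed by the array design on another chromosome than the gene, so its specificity is uncertain. Usp18 was higher in resting Th9 than in Th2 cultures, by 1.80 ± 0.43 (adjusted p = 0.0176). That call was lost in 4 of 24 other settings. Its difference after restimulation, -0.65, did not pass. Trim25 was 2.00 ± 0.17 (adjusted p = 2.74e-06) higher in Treg than in resting Th9 cultures. After restimulation its probe moved by -0.071, whereas its other probe rose by 2.95, so the array does not settle the change of this gene.

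Ifih1, Ddx58 and Dhx58, also known as MDA5, RIG-I and LGP2, detect foreign RNA in the cytoplasm. Ifih1 stood at 1.39, 1.63 and 2.21 on the Treg, -0.23, -0.40 and 0.21 on the restimulated Th9, -1.66, -1.63 and -1.42 on the resting Th9 and -0.64, -0.20 and 0.11 on the Th2 arrays. In Treg cultures Ddx58 read 1.78, 2.04 and 2.59, in restimulated Th9 cultures -1.53, -1.15 and 0.10, in resting Th9 cultures 0.06, 0.30 and 0.39 and in Th2 cultures 0.36, 0.28 and 0.29. Dhx58 read 2.68, 3.02 and 3.32 on the Treg arrays, 0.35, 0.62 and 0.80 on the restimulated Th9 arrays, 2.88, 2.81 and 2.18 on the resting Th9 arrays and 2.88, 3.01 and 2.42 on the Th2 arrays. Ifih1 was lowest in resting Th9 cultures on every array. Ddx58 was highest on the Treg arrays, and its resting Th9 and Th2 arrays overlapped. Dhx58 overlapped across Treg, resting Th9 and Th2 arrays and was low on the restimulated ones. Ifih1 was 3.32 ± 0.25 (adjusted p = 9.85e-07) higher in Treg than in resting Th9 cultures, stood at -1.33 ± 0.25 (adjusted p = 0.00513) in resting Th9 relative to Th2 cultures, and rose by 1.43 ± 0.25 (adjusted p = 0.000403) with restimulation. Its second probe had the same sign but did not pass in the last 2 of these comparisons (-0.66 and 0.45), and both calls were lost with the mean of the probes. Dhx58, whose differences from resting Th9 (0.38) and from Th2 cultures (0.24) did not pass in Treg cultures, fell by 2.04 ± 0.24 (adjusted p = 2.27e-05) with restimulation. Ddx58 fell as well (-1.11 ± 0.35, adjusted p = 0.0169), with restimulated array 3 inside the range of the resting arrays, and 4 of 24 other settings lost that call. The other probes of Ddx58 also fell and passed there (-2.195, -1.219 and -1.414).

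Zbp1 senses nucleic acids in the Z form and can start cell death, Eif2ak2, or PKR, stops translation when it binds double-stranded RNA, and Adar edits adenosines in such RNA. The level of Zbp1 was 5.99, 6.27 and 6.55 on the Treg arrays, 3.33, 3.52 and 3.28 on the restimulated Th9 arrays, 3.87, 3.85 and 3.53 on the resting Th9 arrays and 2.65, 2.94 and 3.02 on the Th2 arrays. Eif2ak2 stood at 1.40, 1.67 and 2.18 on the Treg, 0.53, 0.94 and 0.92 on the restimulated Th9, -1.0, -0.90 and -0.75 on the resting Th9 and -0.86, -0.59 and -0.11 on the Th2 arrays. In Treg cultures Adar read 2.86, 3.10 and 3.44, in restimulated Th9 cultures 1.20, 1.37 and 1.50, in resting Th9 cultures 0.93, 0.92 and 1.01 and in Th2 cultures 0.93, 1.23 and 1.47. Each of the 3 had its 3 highest arrays in Treg cultures. The differences between Treg and resting Th9 cultures were 2.52 ± 0.16 (adjusted p = 3.97e-07) for Zbp1, 2.63 ± 0.23 (adjusted p = 3.12e-06) for Eif2ak2 and 2.18 ± 0.17 (adjusted p = 1.23e-06) for Adar. Zbp1 was also higher in resting Th9 than in Th2 cultures, by 0.88 ± 0.16 (adjusted p = 0.00536). Eif2ak2 rose by 1.68 ± 0.23 (adjusted p = 7.35e-05) with restimulation, while Zbp1 (-0.37) and Adar (0.40) missed the threshold, though 7 of 24 other settings called Zbp1 lower and 9 called Adar higher. The other probe of Adar passed as higher there (1.01, adjusted p = 0.000137).

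Rsad2, or viperin, makes a chain-terminating nucleotide that stops viral RNA synthesis, and Cmpk2, its neighbour on chromosome 12, is a mitochondrial nucleotide kinase. Rsad2 read 0.36, 1.0 and 1.99 on the Treg arrays, -3.14, -2.99 and -2.95 on the restimulated Th9 arrays, -4.65, -5.03 and -4.60 on the resting Th9 arrays and -4.12, -3.20 and -2.53 on the Th2 arrays. The level of Cmpk2 was 0.68, 1.14 and 2.10 on the Treg arrays, -2.40, -2.40 and -1.73 on the restimulated Th9 arrays, -4.26, -4.19 and -4.05 on the resting Th9 arrays and -4.22, -3.59 and -1.94 on the Th2 arrays. In both genes the Treg arrays were above all others. Resting Th9 arrays were the lowest in Rsad2, while in Cmpk2 Th2 array 1 lay among them. Rsad2 was 5.88 ± 0.42 (adjusted p = 7.77e-07) and Cmpk2 5.48 ± 0.52 (adjusted p = 5.92e-06) higher in Treg than in resting Th9 cultures, a fold of 58.7 and 44.6. The other probes of Rsad2 differed less there (3.61 and 4.53), and that of Cmpk2 gave 5.78, all called higher. With restimulation Rsad2 rose by 1.73 ± 0.42 (adjusted p = 0.0041) and Cmpk2 by 1.99 ± 0.52 (adjusted p = 0.00596). For Rsad2, the rise rests on 1 of its 3 probes: the others (-0.30 and 0.74) did not pass, and with the mean of the probes the call was lost (0.72, adjusted p = 0.123). Relative to Th2 cultures, Rsad2 was lower in resting Th9 cultures (-1.48 ± 0.42, adjusted p = 0.0376).

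Bst2, or tetherin, ties budding virus to the cell surface, Isg20 degrades single-stranded RNA, Samd9l restricts poxviruses, and Rtp4 is a chaperone of receptors on their way to the membrane. Bst2 stood at 5.16, 5.45 and 5.91 on the Treg, 5.22, 5.33 and 4.96 on the restimulated Th9, 3.96, 3.94 and 4.03 on the resting Th9 and 4.05, 4.42 and 4.59 on the Th2 arrays. In Treg cultures Isg20 read 2.42, 2.77 and 3.34, in restimulated Th9 cultures 1.38, 1.24 and 0.38, in resting Th9 cultures 0.49, 0.99 and 0.24 and in Th2 cultures 3.48, 3.67 and 3.40. Samd9l read 1.30, 1.59 and 1.59 on the Treg arrays, -4.58, -4.96 and -5.11 on the restimulated Th9 arrays, -1.70, -1.57 and -1.99 on the resting Th9 arrays and -1.22, -0.98 and -0.94 on the Th2 arrays. Bst2 was high in Treg and in restimulated Th9 cultures, whose arrays overlapped, and rose by 1.20 ± 0.20 (adjusted p = 0.000283) with restimulation. Isg20 was highest in Th2 cultures on every array and was lower in resting Th9 than in Th2 cultures (-2.94 ± 0.30, adjusted p = 0.000139), a fold of 7.69. In Treg cultures it was 2.27 ± 0.30 (adjusted p = 7.19e-05) above resting Th9 and -0.68 relative to Th2 cultures, which missed the threshold (adjusted p = 0.0718) but passed as lower in 6 of 24 other settings. Samd9l fell by 3.13 ± 0.16 (adjusted p = 1.25e-07) with restimulation, the largest fall among the members, to levels below those of every other array. The level of Rtp4 was 4.76, 5.11 and 5.96 on the Treg arrays, -1.75, -2.01 and -1.90 on the restimulated Th9 arrays, -2.37, -2.51 and -1.41 on the resting Th9 arrays and -3.63, -2.29 and -1.01 on the Th2 arrays. Rtp4 separated the Treg arrays from the rest, which overlapped with each other. It was 7.37 ± 0.56 (adjusted p = 1.21e-06) higher in Treg than in resting Th9 cultures, and neither the difference between resting Th9 and Th2 cultures (0.21) nor that after restimulation (0.21) passed.

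Parp9 and Parp14 belong to the ADP-ribosyltransferases; Parp9 acts together with Dtx3l, and mouse Parp14 is a partner of Stat6, the IL-4 signal transducer. Parp9 stood at 3.63, 3.72 and 3.89 on the Treg, 1.49, 1.65 and 1.78 on the restimulated Th9, 2.75, 2.53 and 2.30 on the resting Th9 and 2.20, 2.27 and 2.23 on the Th2 arrays. In Treg cultures Parp14 read 5.43, 5.59 and 5.73, in restimulated Th9 cultures 3.26, 3.55 and 3.53, in resting Th9 cultures 2.86, 3.00 and 2.69 and in Th2 cultures 3.00, 3.09 and 3.06. The Treg arrays were again above all others. Parp9 was 1.23 ± 0.13 (adjusted p = 1.41e-05) and Parp14 2.73 ± 0.12 (adjusted p = 3.38e-08) higher in Treg than in resting Th9 cultures. With restimulation they went opposite ways: Parp9 fell by 0.88 ± 0.13 (adjusted p = 0.000133) and Parp14 rose by 0.60 ± 0.12 (adjusted p = 0.00131). The other 2 of the 3 probes of Parp14 rose less (0.32 and 0.37) and did not pass, though its call was lost in 0 of 24 other settings.

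Ifi35, a partner of the STAT-binding protein Nmi, and Ifi44, Epsti1 and Tor3a complete the type I group. Ifi35 read 3.36, 3.56 and 3.76 on the Treg arrays, 3.62, 3.66 and 3.81 on the restimulated Th9 arrays, 1.36, 1.64 and 1.76 on the resting Th9 arrays and 1.98, 2.04 and 2.34 on the Th2 arrays. The level of Ifi44 was 2.17, 2.54 and 3.47 on the Treg arrays, -2.66, -2.74 and -2.95 on the restimulated Th9 arrays, -6.13, -5.69 and -6.29 on the resting Th9 arrays and -4.59, -2.35 and -0.56 on the Th2 arrays. Epsti1 stood at 3.95, 4.22 and 4.70 on the Treg, -0.81, -0.74 and -0.40 on the restimulated Th9, 0.01, -0.09 and -0.18 on the resting Th9 and 2.66, 2.70 and 2.42 on the Th2 arrays. The restimulated arrays of Ifi35 overlapped with the Treg arrays. The Th2 arrays of Ifi44 ran from -4.59 to -0.56, and 1 of the 3 resting Th9 arrays was well above background. Epsti1 was second highest in Th2 cultures on every array. In Treg cultures Tor3a read 2.73, 2.88 and 2.89, in restimulated Th9 cultures 0.71, 1.07 and 1.25, in resting Th9 cultures 0.46, 0.73 and 1.10 and in Th2 cultures 0.31, 0.60 and 1.07. Tor3a separated only the Treg arrays. Ifi44 was 8.76 ± 0.77 (adjusted p = 3.41e-06) higher in Treg than in resting Th9 cultures, stood at -3.54 ± 0.77 (adjusted p = 0.0117) in resting Th9 relative to Th2 cultures, and rose by 3.25 ± 0.77 (adjusted p = 0.00344) with restimulation. Its second probe did not pass in the last 2 of these comparisons (-2.91 and 2.38), and with slide as a fixed block both calls were lost (-4.12, adjusted p = 0.404, and 3.08, adjusted p = 0.0569). Epsti1 was 4.37 ± 0.18 (adjusted p = 2.41e-08) higher in Treg than in resting Th9 cultures, and resting Th9 cultures differed by -2.68 ± 0.18 (adjusted p = 1.12e-05) from Th2 cultures, a fold of 6.41 lower. Ifi35 rose by 2.11 ± 0.15 (adjusted p = 6.22e-07) with restimulation, and Tor3a was 2.06 ± 0.22 (adjusted p = 1.37e-05) higher in Treg than in resting Th9 cultures. After restimulation Tor3a moved by 0.25 and did not pass, whereas its other probe fell by 0.72.

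**Figure D3:**
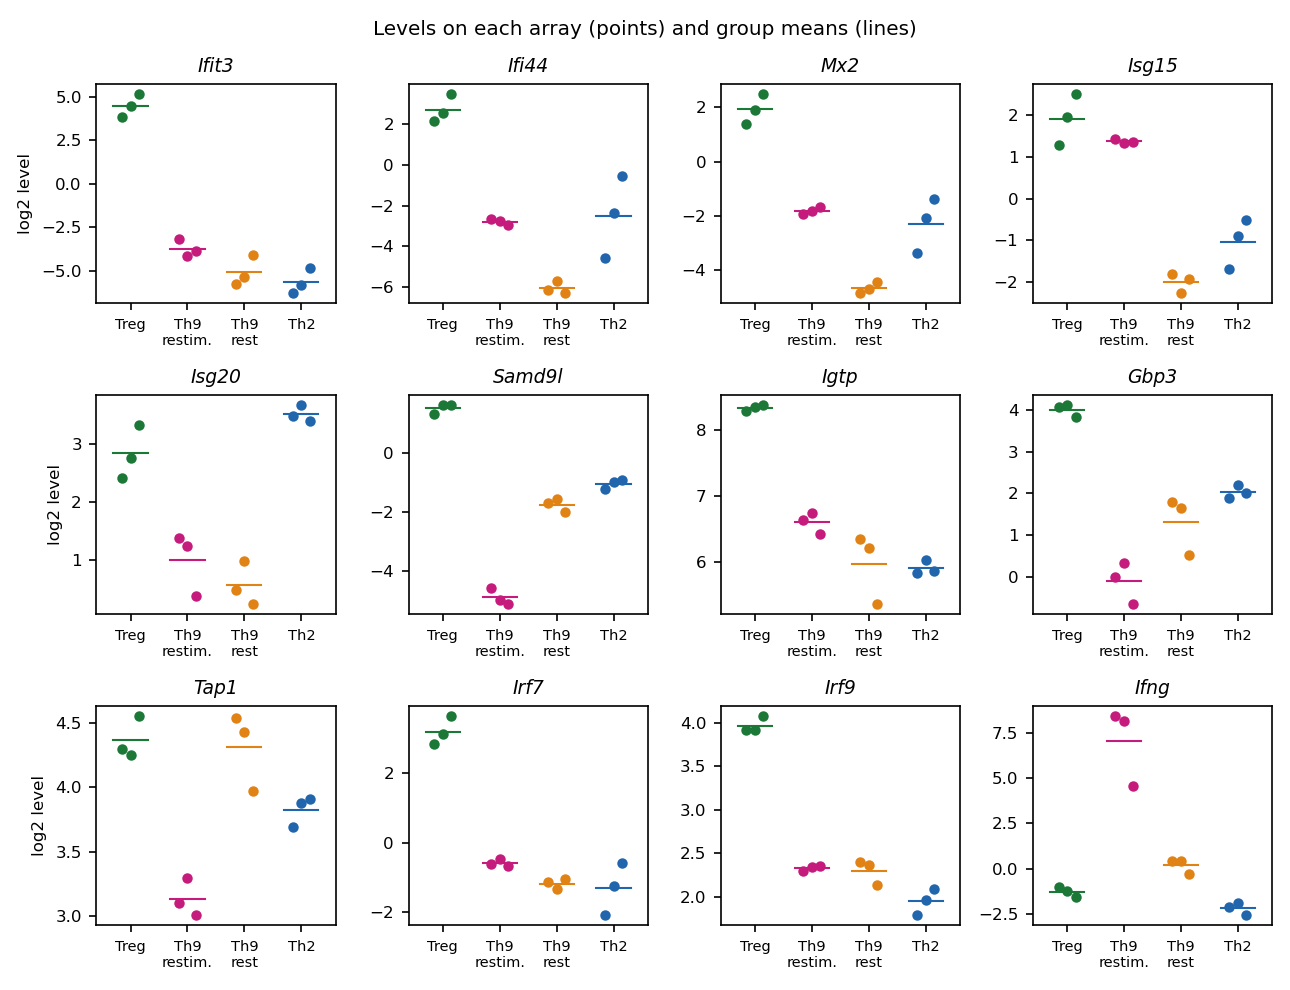
Log2 level on each array (points, in replicate order from left to right) and group mean (lines) of 9 members and of Irf7, Irf9 and Ifng, each panel with its own range. Ifit3 and Igtp are highest on the 3 Treg arrays, Isg20 on the 3 Th2 arrays and Ifng on the 3 restimulated Th9 arrays, while Samd9l, Gbp3 and Tap1 are lowest on the restimulated ones.

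The immunity-related GTPases Ifi47, Igtp, Irgm1 and Iigp1 and the guanylate-binding proteins Gbp2 and Gbp3 act on the vacuoles in which parasites and bacteria live inside cells. Ifi47 read 5.35, 5.44 and 5.31 on the Treg arrays, 3.89, 3.89 and 3.61 on the restimulated Th9 arrays, 3.52, 3.08 and 2.39 on the resting Th9 arrays and 2.79, 2.80 and 2.73 on the Th2 arrays. The level of Igtp was 8.29, 8.34 and 8.37 on the Treg arrays, 6.64, 6.75 and 6.43 on the restimulated Th9 arrays, 6.35, 6.22 and 5.37 on the resting Th9 arrays and 5.84, 6.04 and 5.87 on the Th2 arrays. Irgm1 stood at 5.43, 5.61 and 5.53 on the Treg, 4.25, 4.30 and 4.30 on the restimulated Th9, 3.34, 3.02 and 2.11 on the resting Th9 and 2.30, 2.53 and 2.75 on the Th2 arrays. In these 3 genes the Treg arrays lay close to one another and above all others. In Treg cultures Iigp1 read 5.58, 5.80 and 5.92, in restimulated Th9 cultures 3.95, 4.15 and 2.39, in resting Th9 cultures 3.10, 2.75 and 0.61 and in Th2 cultures 0.12, 1.06 and 1.11. Gbp2 read 5.66, 5.74 and 5.47 on the Treg arrays, 4.05, 4.04 and 2.90 on the restimulated Th9 arrays, 4.98, 4.72 and 3.19 on the resting Th9 arrays and 3.73, 4.01 and 3.48 on the Th2 arrays. The level of Gbp3 was 4.07, 4.10 and 3.83 on the Treg arrays, 0.01, 0.35 and -0.64 on the restimulated Th9 arrays, 1.80, 1.66 and 0.53 on the resting Th9 arrays and 1.89, 2.19 and 2.00 on the Th2 arrays. In each of the 6 genes resting Th9 array 3 was the lowest of its group. Between Treg and resting Th9 cultures the differences ran from 1.32 ± 0.44 (adjusted p = 0.021) for Gbp2 to 3.62 ± 0.63 (adjusted p = 0.00049) for Iigp1. Igtp was higher in Treg by 2.35 ± 0.22 (adjusted p = 4.68e-06) and Irgm1 by 2.70 ± 0.25 (adjusted p = 5.62e-06). Without resting Th9 array 3 the difference of Gbp2 was 0.77 and missed the threshold (adjusted p = 0.0619). Against Th2 cultures the range was from 1.88 for Gbp2 to 5.01 for Iigp1.

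Between resting Th9 and Th2 cultures the GTPases had a median difference of 0.26, with 1.39 ± 0.63 (adjusted p = 0.16) for Iigp1 and -0.69 for Gbp3 at the ends, and none passed. Without Th9 array 3, Iigp1 was higher in resting Th9 cultures by 2.16 (adjusted p = 0.0179), Gbp2 by 1.11 (0.046), Irgm1 by 0.65 (0.0198) and Ifi47 by 0.53 (0.0401). After restimulation Irgm1 rose by 1.46 ± 0.25 (adjusted p = 0.000442), Ifi47 by 0.80 ± 0.22 (adjusted p = 0.00922) and Igtp by 0.63 ± 0.22 (adjusted p = 0.0254), a call lost in 6 of 24 other settings, while Gbp3 fell by 1.43 ± 0.32 (adjusted p = 0.0026). One of the 3 probes of Irgm1 fell there (-1.61), and with the mean of the probes its call was lost (0.40, adjusted p = 0.306). The restimulated array 3 was lowest of its group for 5 of the 6, as it was for Ifng. Of 17986 genes in all, 7132 were lowest on that array.

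Psmb8 and Psmb9 are catalytic subunits of the immunoproteasome, which cuts proteins into peptides for MHC class I, and Tap1 is one chain of the transporter that carries them into the endoplasmic reticulum. Psmb8 stood at 6.44, 6.53 and 6.49 on the Treg, 5.54, 5.74 and 5.67 on the restimulated Th9, 5.90, 6.05 and 5.89 on the resting Th9 and 6.13, 6.28 and 6.15 on the Th2 arrays. In Treg cultures Psmb9 read 6.66, 6.70 and 6.58, in restimulated Th9 cultures 5.32, 5.39 and 4.89, in resting Th9 cultures 5.97, 5.91 and 5.68 and in Th2 cultures 5.51, 5.77 and 5.87. Tap1 read 4.30, 4.25 and 4.55 on the Treg arrays, 3.10, 3.30 and 3.01 on the restimulated Th9 arrays, 4.54, 4.43 and 3.97 on the resting Th9 arrays and 3.69, 3.88 and 3.91 on the Th2 arrays. Restimulated arrays were the lowest in each gene, and in Tap1 the Treg arrays overlapped with the resting Th9 arrays. In Treg cultures Psmb8 was 0.54 ± 0.094 (adjusted p = 0.000504) and Psmb9 0.79 ± 0.15 (adjusted p = 0.000879) above resting Th9 cultures, while Tap1 (0.05) did not pass there. Tap1 was higher in Treg than in Th2 cultures by 0.54 ± 0.16 (adjusted p = 0.0121). With slide as a fixed block that call (0.47, adjusted p = 0.129) and the one of Psmb8 over Th2 cultures (0.25, adjusted p = 0.173) were lost. All 3 fell with restimulation, with a difference of -1.17 ± 0.16 (adjusted p = 6.87e-05) in Tap1, -0.66 ± 0.15 (adjusted p = 0.00277) in Psmb9 and -0.29 ± 0.094 (adjusted p = 0.0182) in Psmb8. The call of Psmb8 was lost in 5 of 24 other settings.

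The samples of a group were not alike in these genes. On Treg array 3, 30 of the 31 type I members were at their highest within the group, and on Treg array 1, 30 were at their lowest, so that the median type I level was 3.32, 2.54 and 2.17 on Treg arrays 3, 2 and 1. Of 17992 genes in all, 7487 were highest on Treg array 3 and 6154 lowest on Treg array 1. On Th2 array 1, 26 of the 31 type I members were at their lowest, and 23 were at their highest on Th2 array 3. Of 17996 genes in all, 5567 were lowest on Th2 array 1 and 6040 highest on Th2 array 3. The median SD of a type I member was 0.42 among the Treg arrays and 0.38 among the Th2 arrays, where that over all genes was 0.17 and 0.16. Among restimulated (0.19) and resting Th9 arrays (0.21) it was closer to that of all genes (0.18 and 0.17). The GTPases varied elsewhere: their median SD was 0.11 among Treg arrays and 0.67 among resting Th9 arrays, where array 1 was highest for 6 of 6 and array 3 lowest for 6 of 6. Of 17991 genes in all, 5995 were highest on resting Th9 array 1 and 6780 lowest on resting Th9 array 3. The Ifng level of these resting Th9 arrays was 0.45, 0.42 and -0.27 for arrays 1, 2 and 3. Whether Ifng had a part in the spread was not tested.

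**Figure D4:**
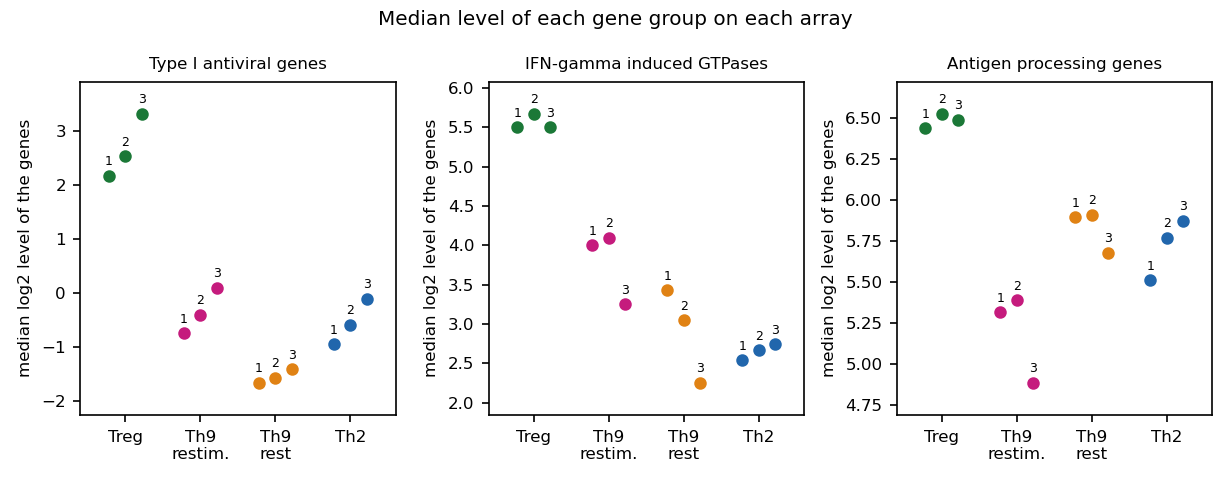
Median log2 level over the members of each gene group (31 type I genes, 6 GTPases, 3 antigen processing genes) on each array, labelled by its replicate number. The type I medians of the Treg arrays lie between 2.17 and 3.32, above all other arrays, and those of resting Th9 arrays between -1.66 and -1.41, below all others, while the GTPase medians of Treg arrays lie between 5.50 and 5.67.

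Set beside the promoter letters, the 14 tested members with an ISRE core were all higher in Treg than in resting Th9 cultures, with a median difference of 2.68, and of 15 tested members whose windows held none, 14 were higher, with a median of 2.37. After restimulation 8 rose and 2 fell of those with the core (median 1.26), and 6 rose and 5 fell of those without it (median 0.40). Igtp, with its GAS and ISRE cores, and Irgm1, with ISRE cores only, differed by 2.35 and 2.70 between Treg and resting Th9 cultures. Oasl2 and Ifi44, among the members that differed most, held neither core, which says only that these letters are not in their windows. These counts describe the windows given and were not tested.

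The genes of the pathway itself were taken from lists of ligands, receptors, signalling factors and other known targets. Of 19 interferon genes, 7 were measured, and limma called 0 higher and 1 lower in Treg than in resting Th9 cultures (35.3% and 28.7% of all genes). At an unadjusted p under 0.05, 2 differed. The lower one was Ifna13 (-0.58 ± 0.19, adjusted p = 0.0196). Ifnb1 was too dim to be tested, with 2 arrays well above background, both restimulated, and its levels on the restimulated arrays (-4.42, -5.12 and -5.91) lay above those of the other groups (-8.06 to -7.38). The level of Ifng was -1.0, -1.24 and -1.55 on the Treg arrays, 8.39, 8.12 and 4.56 on the restimulated Th9 arrays, 0.45, 0.42 and -0.27 on the resting Th9 arrays and -2.10, -1.89 and -2.54 on the Th2 arrays. Ifng was high on all restimulated arrays and rose by 6.82 ± 0.80 (adjusted p = 2.24e-05) with restimulation. Its differences between Treg and resting Th9 (-1.46, adjusted p = 0.13) and between Treg and Th2 cultures (0.91, adjusted p = 0.336) did not pass, and that between resting Th9 and Th2 cultures was 2.38 (adjusted p = 0.0656). The fit shares 1 spread per gene over all groups. For Ifng the SD was 2.14 on the restimulated arrays, against 0.28 on Treg, 0.41 on resting Th9 and 0.33 on Th2 arrays. Every Treg array lay below every resting Th9 array and above every Th2 array (30.9% and 37.5% of all genes), so these misses do not show equal Ifng levels. A transcript level does not show how much interferon the medium held.

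Receptors and signalling genes were mostly higher in Treg cultures, in lists of few genes. Of all genes tested, 35.3% were called higher and 28.7% lower in Treg than in resting Th9 cultures. With restimulation these shares were 33.1% and 30.6%, and in resting Th9 against Th2 cultures 7.74% and 9.20%. Of 6 receptor chains, 4 were higher and 1 lower in Treg than in resting Th9 cultures. Ifnar1 differed by 1.94 ± 0.18 (adjusted p = 4.17e-06), Ifnar2 by 0.52 ± 0.11 (adjusted p = 0.00155) and Ifngr1 by 1.62 ± 0.23 (adjusted p = 0.000102), while Ifngr2 (-0.33) did not pass. Il28ra, the receptor chain of type III interferon, was lower (-1.86 ± 0.21, adjusted p = 2.28e-05). After restimulation 4 of the 6 fell, with Ifngr1 at -2.24 ± 0.23 (adjusted p = 7.77e-06) and Ifnar2 at -1.74 ± 0.11 (adjusted p = 2.98e-07), and Ifnar1 (-0.28) and Ifngr2 (-0.60) not past the threshold. Of 12 signalling and transcription factors, 10 were higher and 1, Jak2, lower in Treg than in resting Th9 cultures. Irf7 stood at 2.85, 3.12 and 3.64 on the Treg, -0.61, -0.47 and -0.67 on the restimulated Th9, -1.14, -1.34 and -1.05 on the resting Th9 and -2.08, -1.25 and -0.57 on the Th2 arrays. Irf7, which amplifies the type I response, had its 3 highest arrays in Treg cultures. Irf7 differed by 4.38 ± 0.32 (adjusted p = 8.94e-07), Stat2 by 2.08 ± 0.16 (adjusted p = 1.39e-06), Irf9 by 1.67 ± 0.11 (adjusted p = 4.26e-07) and Irf1 by 1.87 ± 0.23 (adjusted p = 3.93e-05). Between resting Th9 and Th2 cultures 2 of the 12 were higher in Th9, Stat2 (0.54 ± 0.16, adjusted p = 0.0446) and Jak2 (0.71 ± 0.15, adjusted p = 0.0094), whereas Irf7 (0.12), Irf9 (0.35) and Irf1 (0.27) did not pass. With restimulation Irf3 rose by 0.72 ± 0.14 (adjusted p = 0.00078), and 3 of the 12 fell, Jak1 (-1.20 ± 0.11, adjusted p = 3.76e-06), Irf5 (-0.55 ± 0.16, adjusted p = 0.0108) and Stat2 (-0.43 ± 0.16, adjusted p = 0.0394). Irf7 (0.59), Irf9 (0.033) and Irf1 (0.18) missed the threshold there. Of 5 negative regulators, Pias1 was higher in Treg than in resting Th9 cultures (1.14 ± 0.079, adjusted p = 5.9e-07), and Ptpn2 (-1.62 ± 0.12, adjusted p = 8.02e-07) and Socs1 (-0.85 ± 0.12, adjusted p = 0.000152) were lower.

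Other targets of interferon, listed apart from the 42, were also mostly higher in Treg cultures. Of 27 measured genes induced by interferon in general, 24 were higher and 2 lower than in resting Th9 cultures, with a median of 2.37. For this list and the next, the shares of all genes called higher and lower were 35.3% and 28.7%. The largest differences were those of Ifi203 (6.46 ± 0.30, adjusted p = 4.32e-08) and Ifi204 (6.38 ± 0.41, adjusted p = 3.48e-07), related DNA-binding proteins whose probes may bind each other's transcripts, Ifi205 (5.20) and Parp12 (5.09). Ifitm2 (-3.81 ± 0.26, adjusted p = 4.7e-07) and Ifitm1 (-1.30 ± 0.19, adjusted p = 0.000132), membrane proteins that hinder virus entry and were named after their values were seen, were the 2 lower ones. Of 19 measured further IFN-gamma targets, 16 were higher and 1 lower, with a median of 1.69. Gbp1 was at least 9.05-fold higher (adjusted p = 1.02e-05), since it was not well above background in resting Th9 cultures, and Gbp6 (3.51 ± 0.42, adjusted p = 3.32e-05), Irgm2 (3.07 ± 0.20, adjusted p = 4.72e-07) and Tgtp (2.99 ± 0.32, adjusted p = 1.51e-05) followed. With restimulation the first list split into 10 that rose and 8 that fell, and the second into 8 and 5. Of all genes 33.1% were called higher and 30.6% lower there, and the split of the first list lay close to these shares. Slfn2 (2.76 ± 0.14, adjusted p = 1.26e-07) and Parp12 (2.93 ± 0.49, adjusted p = 0.000339) were among those that rose in the first, and the chemokine gene Cxcl10 (3.34 ± 0.47, adjusted p = 9.85e-05) rose most in the second. Parp12 was well above background on 1 of the 3 resting Th9 arrays, so both of its differences from that group are uncertain in size. Ciita, which drives MHC class II genes, fell by 2.66 ± 0.41 (adjusted p = 0.000194).

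Markers of other cells moved with the groups as well. Of all genes tested, 35.3% were called higher and 28.7% lower in Treg than in resting Th9 cultures, and 33.5% higher than in Th2 cultures. With restimulation 33.1% were higher and 30.6% lower, and 7.74% were higher in resting Th9 than in Th2 cultures. Of 10 B cell markers, 9 were higher in Treg than in resting Th9 and 10 than in Th2 cultures, 6 were lower in restimulated than in resting Th9 cultures, and 3 were higher in resting Th9 than in Th2 cultures. Their summed signal, in units of the array's 75th percentile, was 57.1 to 78.2 on the Treg, 0.80 to 2.65 on the restimulated, 5.34 to 7.08 on the resting Th9 and 2.63 to 4.57 on the Th2 arrays. Among the Treg arrays this B cell sum was lowest on array 3 and the type I genes were highest there, and with 3 arrays a link was not tested. Of 10 measured monocyte, macrophage and dendritic cell markers, 6 were higher and 2 lower in Treg than in resting Th9 cultures. Lyzs was at least 91.9-fold and Lyz at least 12.8-fold higher. The 2 lower ones, named because they went the other way, were Emr1 (mean level -2.035 in Treg, 0.833 in resting Th9 cultures) and Cd68 (-2.989 and -2.279). The sums of the 10 were 1.68 to 3.48 on the Treg, 0.89 to 3.93 on the restimulated, 2.12 to 3.15 on the resting Th9 and 2.53 to 3.10 on the Th2 arrays. Siglech and Klra17, markers of plasmacytoid dendritic cells, which are known to secrete much type I interferon, were not well above background on any array. The other 4 genes of that list gave 2 higher and 1 lower in Treg than in resting Th9 cultures. Their summed signals were 9.05 to 11.6 on the Treg, 2.67 to 2.90 on the restimulated, 3.75 to 4.34 on the resting Th9 and 3.65 to 4.03 on the Th2 arrays. The B cell sums were likewise highest on the Treg arrays, and which cells gave the signal of these 4 genes was not tested. Naive and resting T cell markers were higher for 5 of 7 in Treg than in resting Th9 cultures, with sums of 304 to 414 on the Treg, 154 to 188 on the restimulated, 204 to 232 on the resting Th9 and 166 to 184 on the Th2 arrays. CD8 T and NK cell markers were higher for 1 and lower for 1 of 5 there, and 4 of 5 were lower in restimulated than in resting Th9 cultures, with sums of 23.6 to 43.6 on the Treg, 2.91 to 16.9 on the restimulated, 23.2 to 30.5 on the resting Th9 and 15 to 19.5 on the Th2 arrays. The part of these cells in the interferon-stimulated genes was not tested. Markers of T cell restimulation, such as Egr2 and Il2, were higher for 6 of 6 in restimulated than in resting Th9 cultures, with sums of 77.4 to 133 on the restimulated and 7.33 to 8.10 on the resting arrays.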

How the data were processed

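The 12 samples were read on Agilent one-colour arrays. Per the file headers, the deposited intensity values are processed signals, which the scanning software (Agilent Feature Extraction, version 10.5.1.1) had background-subtracted within each array. Here log2 of that signal minus the array's 75th percentile was used, control and outlier spots were left out and spots of a probe averaged. A probe was kept if well above background on at least 3 of the 12 arrays, and each gene took its kept probe with the highest mean, which left 17998 genes. Limma 3.58.1 (R 4.3.3) fitted 1 mean per group over all 12 arrays, with eBayes and Benjamini-Hochberg adjustment over all genes and a threshold of 0.05, and was tested on simulated data. The authors' deposited log2 values, quantile normalized judging by the values, served as an alternative. Other alternatives were normexp background correction, quantile normalization, other filters, the mean of the probes, slide and replicate blocks and left-out arrays.

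The members and the lists beside them were chosen with earlier results of these data known. Genes named are all 42 members, up to 4 called genes with the largest differences from each other list, and the main interferon, receptor and signalling genes, of which 1 is not reported here. The labels number the replicates in every group. Same-numbered arrays of resting Th9 and Th2 cultures deviated together in all 3 pairs (correlations of 0.20, 0.18 and 0.41), so these numbers were taken as pairs from the data, not from the design. Promoter windows are RefSeq's, build GRCm38.p6. Of the array design's coordinates, of another build (mm8), only the chromosome was used, to check each probe against its gene.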

Additional observations from a re-analysis of the deposited data

How the results depend on the processing

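The counts of members higher in Treg than in resting Th9 or Th2 cultures stayed within 1.5 times of 38 under all 24 alternatives, and so did both counts for restimulation. Between resting Th9 and Th2 cultures they did not. With slide as a fixed block 0 members were higher and 3 lower, with a median difference of -0.63 (against -0.22), and no slide held both groups. With only the 6 arrays compared, 1 was higher, and with the arrays numbered 3 left out, chosen after seeing the data, 6 were. Leaving out 1 array gave 1 to 7 higher and 6 to 12 lower. The cause was not tested, and the shares of all genes under these settings are not given here. Isg20 was the 1 member called lower in Treg than in Th2 cultures, against 0, under normexp, with only the 6 arrays compared, with slide as a fixed block and with the arrays numbered 3 left out, and leaving out 1 array gave 0 to 1. Trim25 changed sign in restimulated against resting Th9 cultures with the mean of its probes (1.44), since its 2 probes differ. Slide as a random block had a correlation of -0.003 and kept all calls.

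With the replicate block, 2 members were higher and 11 lower in resting Th9 than in Th2 cultures, and 3 and 9 with the block and only the 6 arrays compared, a combination chosen after seeing the data. It moved no count of members by over 1.5 times. In the other comparisons the numbers were not taken as pairs, and whether they are pairs is not known. Each restimulated array (0.208, 0.109 and 0.094) and each Treg array (0.048, 0.141 and 0.117) correlated most with the resting Th9 array of its number. Treg and Th2 arrays correlated little (0.026, 0.02 and -0.007). Of all 18 pairs of same-numbered arrays, 8 correlated above 0.1 in their deviations (from -0.021 to 0.41). The authors' deposited values correlated at 0.9996 or more with the scanner values. With 3 arrays a group, small differences, and those of dim probes, were not resolved.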
